A study of Bos taurus with 18 samples.

Results

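The BCL2 family and the mitophagy receptors BNIP3 and BNIP3L were read in the granulosa and theca of bovine preovulatory follicles, before and after the LH surge. The members were taken by gene symbol from the platform's probe annotation: BAX, BAK1, BID, BCL2, BCL2L1, MCL1, BNIP3 and BNIP3L. Of these 8 genes, 7 were measured, by 13 probe sets, among 9155 genes and 13292 probe sets that carry 1 symbol. BID was not analysed here. BCL2 had 5 probe sets, BNIP3 had 3 and the other genes 1 each.

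Each of 6 cows gave the RNA of 1 dominant follicle. Cows D, F and G were sampled before the LH surge. Cows A, B and C were sampled 22 h after GnRH, the hypothalamic hormone given to set the surge off. From every follicle, granulosa still attached to the follicle wall (membrane granulosa), granulosa aspirated with the fluid (antral granulosa) and theca were put on separate Affymetrix arrays, so that each of the 6 groups holds 3 arrays. Replicates are separate cows, and precision is set by there being 3 of them in a group. The groups before LH served as the reference for the LH effect.

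Proteins of the BCL2 family decide at the outer mitochondrial membrane whether a cell enters apoptosis. BAX and BAK1 open pores in that membrane, BCL2, BCL2L1 (BCL-XL) and MCL1 hold them in check, and BH3-only proteins such as BID tip the balance. BNIP3 and BNIP3L (NIX) belong to the same wider family, but are known mainly as receptors that sit on mitochondria and recruit the autophagy machinery to them; BNIP3 is a classic target of hypoxia-inducible factor. In the follicle, granulosa cells that are not rescued by gonadotropins die by apoptosis, and those that respond to LH leave the cell cycle and turn into luteal cells.

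All values are log2 signals, and a difference of 1 is a factor of 2 in signal. Differences are given ± standard error with n = 3 cows per group and the adjusted p of limma over 24016 probe sets, called under 0.05. The standard error rests on 1 spread per probe set that limma estimates over all 18 arrays. It is therefore the same for the LH effect in each population, and is not the spread of the groups compared. Each gene is represented by the probe set with the highest mean over the 18 arrays. The level 4.62, below which the dimmest 33.3% of probe sets have their mean, served as the limit of measurement, as the files hold no detection calls. Levels of different probe sets are not comparable with each other. In bulk RNA, fewer cells of a type and less RNA per cell cannot be told apart. The granulosa marker list (9 genes) had a mean level of 11.03 to 11.30 on granulosa arrays before LH and 8.46 to 9.57 on theca arrays. After LH it was 7.86 to 8.83 and 7.19 to 7.25. Theca markers (5 of 6 listed measured) had a mean of 9.95 to 10.72 on theca arrays before LH, 7.28 to 9.81 on membrane granulosa and 6.39 to 6.84 on antral granulosa. Before LH, 3 of the 5 were called higher and 1 lower in theca than in membrane granulosa. In antral against membrane granulosa 3 were called lower and 0 higher. Whether the membrane granulosa arrays held theca cells was not tested. Of the defining markers, PTCH1 was below the limit on all arrays of every group, and FOXL2 on all theca arrays and, after LH, on all granulosa arrays.

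MCL1 and BNIP3L were called higher after LH in all 3 populations, and BCL2L1 in membrane granulosa. In membrane granulosa 3 of the 7 genes were called, all higher, where 21.0% of all probe sets were called (10.0% higher, 10.9% lower). In antral granulosa 3 were called, 2 higher (MCL1, BNIP3L) and 1 lower (BCL2), where 22.4% were called (10.3% higher, 12.2% lower). In theca 2 were called, both higher, where 3.92% were called (1.79% higher, 2.12% lower). Over all genes by their brightest probe sets, 13.1% were called higher and 12.9% lower in membrane granulosa. In antral granulosa these shares were 12.6% and 16.1%, and in theca 2.34% and 2.85%. The groups before and after LH did not overlap for 4, 4 and 5 of the 7 genes in membrane granulosa, antral granulosa and theca, beside 34.5%, 36.7% and 20.4% of all probe sets. The median LH effect of the 7 genes was 0.55, -0.28 and 0.55 in the same order, beside -0.03, -0.03 and -0.01 over all genes. BAX, BAK1 and BNIP3 were called in none of the 3.

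**Figure D1:**
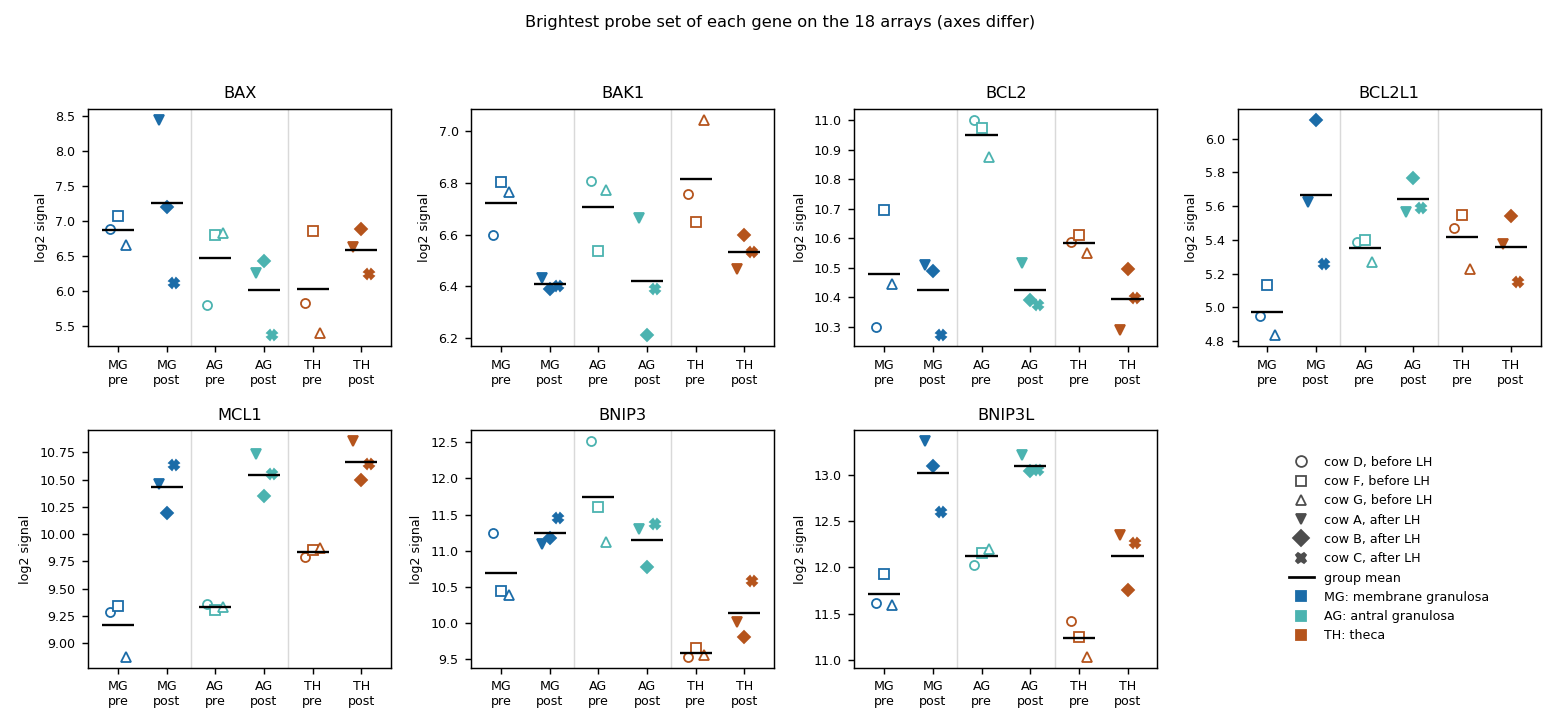
Log2 signal of the brightest probe set of each of the 7 genes (y axis, with its own range in each panel) on every array, by population before and after LH (x axis). Points are single cows and bars are group means of 3; MCL1 and BNIP3L lie higher on every array after LH than before it in each population, while BAX spreads from 6.11 to 8.44 in membrane granulosa after LH.

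Among the genes that restrain apoptosis, MCL1 gave the clearest change. MCL1 is a short-lived survival protein that binds BAK1 and BH3-only proteins. In membrane granulosa it read 9.29, 9.34 and 8.87 before LH (cows D, F and G) and 10.46, 10.19 and 10.63 after it (cows A, B and C). In antral granulosa the values were 9.36, 9.31 and 9.33, then 10.74, 10.35 and 10.55. In theca they were 9.79, 9.85 and 9.87, then 10.85, 10.50 and 10.64. No group before LH overlapped with the group after LH of its population. The rise was 1.26 ± 0.15 in membrane granulosa (2.40-fold, adjusted p = 1.79e-05), 1.21 ± 0.15 in antral granulosa (2.32-fold, adjusted p = 2.07e-05) and 0.83 ± 0.15 in theca (1.77-fold, adjusted p = 0.00471).

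The MCL1 rise ranked 581, 567 and 395 from the top among 9155 genes in membrane granulosa, antral granulosa and theca. The 3 calls held under 14 alternatives of normalization, filter, model and left-out cow, with adjusted p of at most 0.00591, 0.000909 and 0.0495. The rise in theca is smaller than a minimum difference of 1, and under that minimum it was not called. Before LH, MCL1 was higher in theca than in membrane granulosa by 0.67 ± 0.13 (adjusted p = 0.00144), and in all 3 cows. After LH theca stood 0.24 ± 0.13 above membrane granulosa (adjusted p = 0.220, 95% interval -0.04 to 0.52). The difference in LH effect between theca and membrane granulosa was -0.43 ± 0.18 and did not pass the threshold (adjusted p = 0.180). Of the 6 group means, those of the 3 groups after LH lay within 0.24 of each other and above all values before LH.

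BCL2L1 encodes BCL-XL, which binds BAX and BH3-only proteins, and its rise was called in membrane granulosa only. There it read 4.95, 5.13 and 4.83 before LH and 5.63, 6.11 and 5.25 after it, with no overlap. The rise was 0.69 ± 0.18 (1.62-fold, adjusted p = 0.0106). Antral granulosa read 5.39, 5.40 and 5.27, then 5.56, 5.77 and 5.59, also with no overlap. That difference, 0.29 ± 0.18, was not called (adjusted p = 0.294). The LH effect on BCL2L1 in antral minus that in membrane granulosa was -0.40 and was not called with limma (adjusted p = 0.531). Theca read 5.47, 5.55 and 5.23, then 5.37, 5.54 and 5.15, and these groups overlapped (-0.06 ± 0.18, adjusted p = 0.936). The lowest levels of this gene were therefore those of membrane granulosa before LH, below every array of the other 5 groups. Its probe set is dim, with a mean of 5.40 over all arrays, and was above the limit on each of them.

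The LH effect on BCL2L1 differed between theca and membrane granulosa by -0.75 ± 0.18 (adjusted p = 0.0199). This was the 1 gene of the 7 called for that difference, where 9.13% of all probe sets were called (4.56% positive, 4.57% negative). Over all genes the shares were 5.66% positive and 5.96% negative. Before LH, theca was higher than membrane granulosa by 0.44 ± 0.13 (adjusted p = 0.0161), in all 3 cows. After LH the difference was -0.31 ± 0.13 (adjusted p = 0.0984), negative in all 3 cows, and it was called without cow C (-0.41, adjusted p = 0.0484; range 0.0484 to 0.522). The BCL2L1 calls did not hold when any 1 of several cows was left out. The rise in membrane granulosa was lost without cow A (adjusted p = 0.0514), B (0.0564), D (0.0544) or G (0.0654), and over its 14 alternatives the adjusted p ran from 0.00127 to 0.0956. The difference before LH was lost without cow D (0.10), F (0.0652) or G (0.0654), over a range of 0.0100 to 0.10. The difference in LH effect was lost without cow A (0.0829), B (0.0974), D (0.0779), F (0.0577) or G (0.0700), over a range of 0.0124 to 0.120.

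BCL2, the founding survival gene of the family, gave answers that depended on the probe set. By the brightest, Bt.7135.1.S1_at, antral granulosa read 11.00, 10.97 and 10.88 before LH and 10.52, 10.39 and 10.37 after it. That is a fall by 0.53 ± 0.12 on the log2 scale (adjusted p = 0.00328). The call of this probe set held under 14 alternatives of normalization, filter, model and left-out cow (adjusted p 0.00203 to 0.0235), but the fall is smaller than the minimum difference of 1 tried for counts of calls. Membrane granulosa (-0.06 ± 0.12, adjusted p = 0.796) and theca (-0.19 ± 0.12, adjusted p = 0.492) were not called by it. On membrane granulosa arrays it read 10.27 to 10.70 over both times and on theca arrays 10.29 to 10.61. Before LH it was 0.47 ± 0.12 higher in antral than in membrane granulosa, which was not called (adjusted p = 0.0633) but was after quantile normalization (0.0332) and with 1 probe set per gene (0.0433), over a range of 0.0332 to 0.334.

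Another pair of BCL2 probe sets went the other way in granulosa. Bt.13141.1.S1_at read 6.13, 6.31 and 6.31 in membrane granulosa before LH and 7.69, 8.18 and 6.55 after it. In antral granulosa it read 6.12, 6.09 and 6.26, then 7.45, 8.19 and 7.02. These groups did not overlap in either population. It rose by 1.23 ± 0.32 in membrane granulosa (2.34-fold, adjusted p = 0.0126) and by 1.40 ± 0.32 in antral granulosa (2.64-fold, adjusted p = 0.00487). Bt.18233.1.A1_s_at rose by 1.54 ± 0.33 (2.91-fold, adjusted p = 0.00336) and 1.85 ± 0.33 (3.61-fold, adjusted p = 0.000705). In membrane granulosa it read 6.37, 6.06 and 5.55, then 7.67, 8.20 and 6.75. Under the manufacturer's naming, the ending _s_at marks probes that more than 1 transcript can share. Within the groups after LH, cow B had the highest and cow C the lowest value of both probe sets on the granulosa arrays.

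In theca these probe sets read 0.15 ± 0.32 (adjusted p = 0.903) and 0.47 ± 0.33 (adjusted p = 0.579) for the LH effect. Bt.13141.1.S1_at lay at 6.53, 6.58 and 6.48 in theca before LH and 6.92, 6.68 and 6.44 after it. The difference in LH effect between theca and membrane granulosa was -1.08 ± 0.29 for BCL2 Bt.13141.1.S1_at (adjusted p = 0.0389) and -1.07 ± 0.33 for Bt.18233.1.A1_s_at (adjusted p = 0.0641). The first of these was called under 3 of its 12 alternatives (adjusted p 0.00772 to 0.246). It was lost without cow A (0.111), B (0.127), D (0.123), F (0.10) or G (0.108), after quantile normalization (0.0533) and after centring on array medians (0.0504). The second was called without cow C (0.0367). After LH, theca was lower than membrane granulosa by Bt.13141.1.S1_at (-0.80 ± 0.21, adjusted p = 0.0138), Bt.18233.1.A1_s_at (-0.82 ± 0.23, adjusted p = 0.0202) and Bt.9742.1.S1_at (-0.56 ± 0.15, adjusted p = 0.0160). Each of these 3 BCL2 calls was lost without cow A (0.0768, 0.0755 and 0.153) or cow B (0.165, 0.261 and 0.125), over ranges of 0.00251 to 0.165, 0.0126 to 0.261 and 0.00794 to 0.153.

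**Figure D2:**
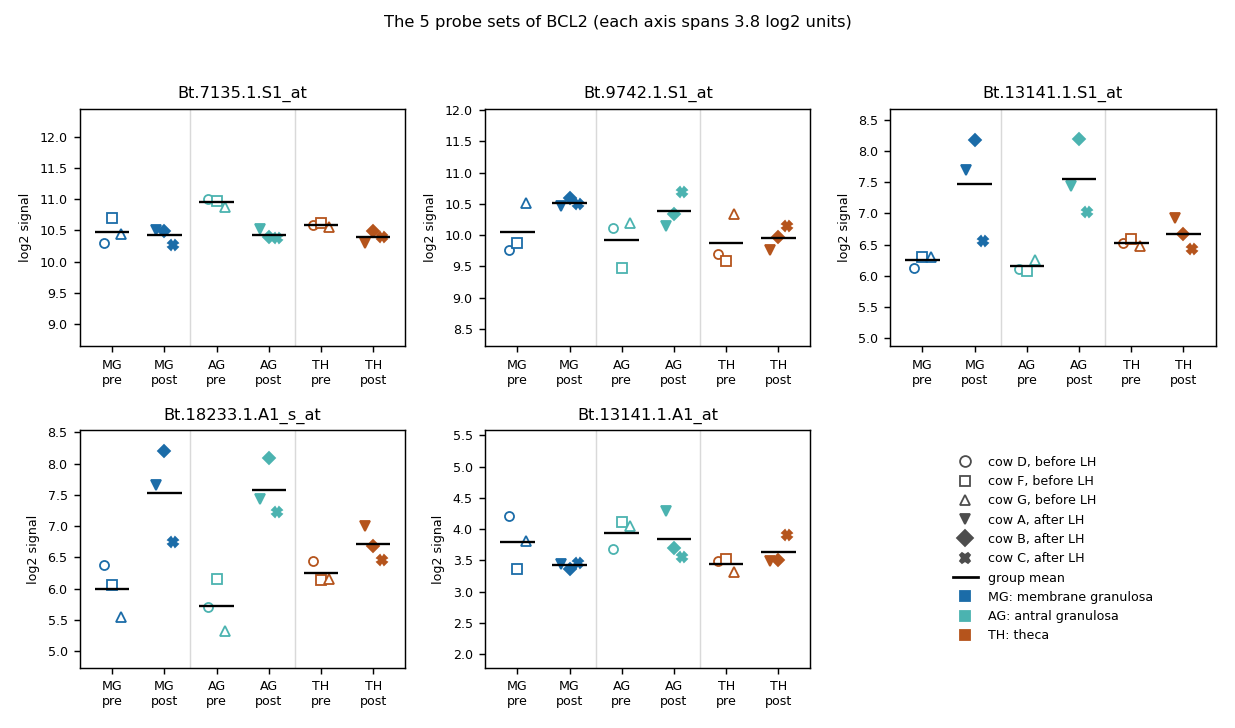
Log2 signal of the 5 BCL2 probe sets (y axis, the same span in each panel) on every array, by population before and after LH (x axis); points are cows and bars group means of 3. The probe sets Bt.13141.1.S1_at and Bt.18233.1.A1_s_at lie higher after LH in both granulosa populations, Bt.7135.1.S1_at lies lower after LH in antral granulosa, and Bt.13141.1.A1_at stays below 4.62 on all 18 arrays.

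The rise of Bt.13141.1.S1_at in membrane granulosa was itself lost without cow A (adjusted p = 0.0823), D (0.0700) or G (0.0572), over a range of 4.75e-05 to 0.0837. The rises of Bt.18233.1.A1_s_at held in all 13 alternatives of each population. Over the 18 arrays these 2 BCL2 probe sets correlated at r = 0.93 with each other and at -0.38 and -0.51 with Bt.7135.1.S1_at, a description of arrays that share groups and cows. Bt.9742.1.S1_at gave 0.47 ± 0.24 in membrane granulosa (adjusted p = 0.20; 0.0333 without cow G, over a range of 0.0333 to 0.503) and 0.46 ± 0.24 in antral granulosa (adjusted p = 0.204). Bt.13141.1.A1_at was below the limit on all 18 arrays, so no size is given for it. Which probe sets report the coding transcript of BCL2 was not tested.

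The pore-forming genes BAX and BAK1 passed the test in no LH comparison. BAX read 6.89, 7.06 and 6.65 in membrane granulosa before LH and 8.44, 7.20 and 6.11 after it. Antral granulosa read 5.79, 6.80 and 6.82, then 6.25, 6.42 and 5.36, and theca 5.83, 6.85 and 5.40, then 6.62, 6.88 and 6.23. The groups overlapped in each population. The differences were 0.38 ± 0.50 (adjusted p = 0.662), -0.46 ± 0.50 (adjusted p = 0.586) and 0.55 ± 0.50 (adjusted p = 0.687), and their 95% intervals, -0.67 to 1.44, -1.52 to 0.60 and -0.50 to 1.61, each reach past 1 in size. Groups accounted for 39.0% of the variance of BAX, the lowest share of the 13 probe sets, beside a median of 67.0% over all genes. Within cows, the BAX value of antral minus membrane granulosa after LH was -2.19 in cow A, -0.78 in cow B and -0.75 in cow C; this was not called (-1.24 ± 0.35, adjusted p = 0.0735; 0.0405 with only these arrays fitted, over a range of 0.0405 to 0.421). Theca minus membrane granulosa before LH was -0.84 ± 0.35 for BAX (adjusted p = 0.0871) and was called without cow A (0.0409), over a range of 0.0318 to 0.286.

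BAK1 varied little, from 6.21 to 7.04 over all 18 arrays. It was lower after LH by a similar amount in membrane granulosa (-0.31 ± 0.13, adjusted p = 0.118), antral granulosa (-0.28 ± 0.13, adjusted p = 0.155) and theca (-0.28 ± 0.13, adjusted p = 0.328), and none of these was called. The groups before and after LH did not overlap in membrane granulosa (6.60 to 6.80 and 6.39 to 6.43) or theca (6.65 to 7.04 and 6.47 to 6.60). BAK1 was also called in none of the comparisons between populations, where its differences lay between -0.02 and 0.12.

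BNIP3L, the mitophagy receptor that removes mitochondria from maturing red cells, rose after LH throughout. In membrane granulosa it read 11.62, 11.93 and 11.59 before LH and 13.37, 13.10 and 12.61 after it. Antral granulosa read 12.03, 12.16 and 12.20, then 13.22, 13.04 and 13.05. Theca read 11.42, 11.25 and 11.03, then 12.35, 11.76 and 12.27. Every array after LH was above every array before it in its own population. The rise was 1.31 ± 0.19 in membrane granulosa (2.49-fold, adjusted p = 0.000114), 0.98 ± 0.19 in antral granulosa (1.97-fold, adjusted p = 0.00135) and 0.89 ± 0.19 in theca (1.86-fold, adjusted p = 0.0137).

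The BNIP3L calls in both granulosa populations held under the same 14 kinds of alternative, though the rises in antral granulosa and theca are under a minimum difference of 1. The call in theca was lost without cow A (adjusted p = 0.0739), F (0.0600) or G (0.107), over a range of 0.0101 to 0.107. Its levels were higher in granulosa than in theca. After LH theca was lower than membrane granulosa (-0.90 ± 0.17, adjusted p = 0.00261), with differences of -1.02 in cow A, -1.34 in cow B and -0.34 in cow C. Without cow B this was not called (-0.68, adjusted p = 0.0595; range 0.000678 to 0.0595). Before LH the difference was -0.48 ± 0.17 (adjusted p = 0.04995), in all 3 cows, and it was lost without cow A (0.0751), D (0.0544), F (0.252) or G (0.185), over a range of 0.0220 to 0.252. Antral against membrane granulosa was not called before LH (0.42 ± 0.17, adjusted p = 0.246) or after it (0.08 ± 0.17, adjusted p = 0.817, 95% interval -0.30 to 0.46). In order, the group means of BNIP3L ran from theca before LH (11.23) through membrane granulosa before (11.71), theca after (12.12) and antral granulosa before (12.13) to membrane (13.03) and antral granulosa after LH (13.10). Red cell markers (7 of 11 listed measured) had a mean of 3.89 to 4.38 in the 6 groups. HBA, ALAS2, EPB42 and SLC4A1 were below the limit on all 18 arrays. HBB was below it on all arrays only in antral granulosa after LH, and AHSP on all arrays of every other group. The remaining measured marker was not below the limit on all arrays of any group. Whether the arrays held red cells was not tested.

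BNIP3 differed between the populations rather than by a called LH effect. By its brightest probe set, Bt.6958.3.A1_at, theca read 9.53, 9.65 and 9.56 before LH (cows D, F and G), membrane granulosa 11.24, 10.44 and 10.39, and antral granulosa 12.51, 11.60 and 11.12. In each of these 3 cows the order was theca, membrane granulosa, antral granulosa. Theca was lower than membrane granulosa (-1.11 ± 0.22, adjusted p = 0.00181), a call that held in all 13 alternatives of this probe set. Bt.26692.1.S1_a_at was lower in theca as well (-0.92 ± 0.19, adjusted p = 0.00226), while the dim Bt.6958.1.A1_at was not (0.07 ± 0.14, adjusted p = 0.758). By the brightest probe set, antral granulosa was higher than membrane granulosa by 1.05 ± 0.22 (2.08-fold, adjusted p = 0.0344), by 1.27, 1.16 and 0.73 in cows D, F and G. The arrays of both populations overlapped. BNIP3 was the 1 gene of the 7 called in that comparison, where 1.77% of all probe sets were called (0.687% higher, 1.09% lower), and its difference ranked 53 from the top among 9155 genes. Over all genes 1.05% were called higher and 1.53% lower. The groups did not overlap for 3 of the 7 genes, BCL2, BCL2L1 and BNIP3L, beside 18.4% of all probe sets. Each of these was higher in antral granulosa in all 3 cows, and none was called (BCL2L1 0.38 ± 0.13, adjusted p = 0.147). At an unadjusted p under 0.05 with limma the count was 4 genes, beside 4093 of 24016 probe sets.

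The other BNIP3 probe sets gave the same excess in antral granulosa before LH. Bt.26692.1.S1_a_at was higher by 1.07 ± 0.19 (adjusted p = 0.0194) and Bt.6958.1.A1_at by 1.11 ± 0.14 (adjusted p = 0.00335), each in all 3 cows. Bt.6958.1.A1_at read 6.33, 6.27 and 6.28 on the antral arrays against 5.45, 4.78 and 5.32 on the membrane arrays. The call of the brightest probe set was lost without cow A (adjusted p = 0.0704), B (0.0722), D (0.0885), F (0.122) or G (0.0592), over a range of 0.0253 to 0.154. That of Bt.26692.1.S1_a_at was lost without cow D (0.0909) or G (0.0609), over a range of 0.0134 to 0.267. That of Bt.6958.1.A1_at held without each cow and was lost in 1 of 12 alternatives (0.00219 to 0.0607). On these arrays fibroblast markers (7 genes) had a mean of 5.77 to 6.19 in antral and 8.19 to 9.63 in membrane granulosa, and theca markers differed in the same way as given above; their part in the BNIP3 difference was not tested.

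**Figure D3:**
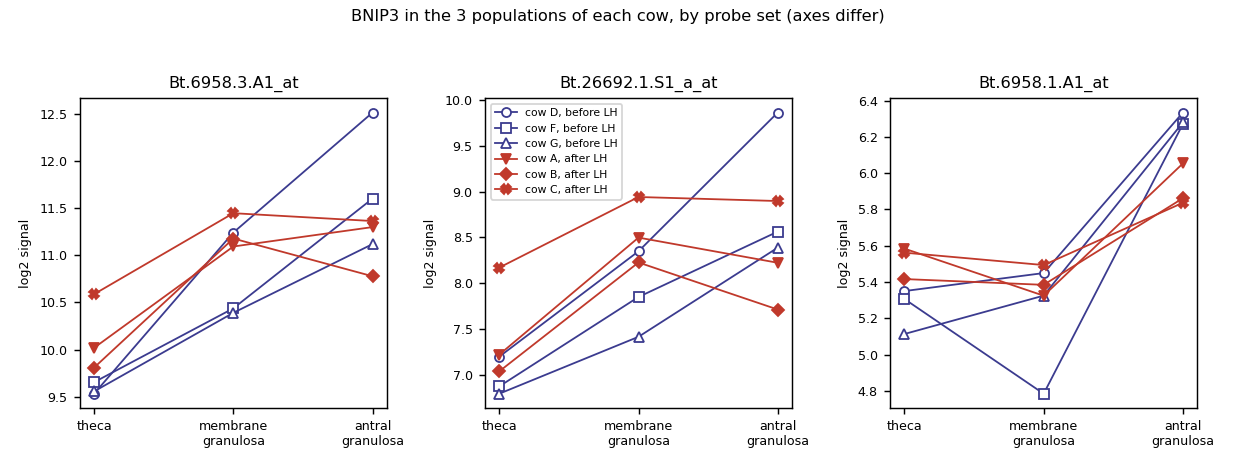
Log2 signal of the 3 BNIP3 probe sets (y axis, its own range in each panel) in theca, membrane granulosa and antral granulosa (x axis), with a line for each of the 6 cows, open symbols before LH and filled symbols after it. In cows D, F and G all 3 probe sets are higher in antral than in membrane granulosa, and by Bt.6958.3.A1_at and Bt.26692.1.S1_a_at theca is the lowest population in every cow.

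After LH both granulosa populations overlapped by the 2 brighter BNIP3 probe sets. Bt.6958.3.A1_at read 11.09, 11.18 and 11.45 in membrane granulosa (cows A, B and C) and 11.30, 10.78 and 11.36 in antral granulosa (-0.09 ± 0.22, adjusted p = 0.828, 95% interval -0.57 to 0.39). By the dim Bt.6958.1.A1_at they did not overlap, at 5.32, 5.38 and 5.49 in membrane and 6.05, 5.86 and 5.84 in antral granulosa. That difference, 0.52 ± 0.14 and positive in all 3 cows, was not called (adjusted p = 0.0680; 0.0478 without cow F, over a range of 0.0478 to 0.428). No gene of the 7 was called in antral against membrane granulosa after LH, where 3.00% of all probe sets were called by limma (1.43% higher, 1.57% lower), and no gene of the 7 had groups without overlap (22.9% of all probe sets); at an unadjusted p under 0.05 the count was 1 gene, BAX. Theca read 10.02, 9.81 and 10.59, lower than membrane granulosa (-1.10 ± 0.22, adjusted p = 0.00316), with differences of -1.07, -1.37 and -0.86 in cows A, B and C. This was lost without cow B (-0.97, adjusted p = 0.0568; range 0.000827 to 0.0568). Bt.26692.1.S1_a_at gave the same difference (-1.08 ± 0.19, adjusted p = 0.00141), while the dim Bt.6958.1.A1_at did not (0.12 ± 0.14, adjusted p = 0.622).

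The LH effects of BNIP3 themselves were 0.55 ± 0.31 in membrane granulosa (adjusted p = 0.251), -0.60 ± 0.31 in antral granulosa (adjusted p = 0.203) and 0.56 ± 0.31 in theca (adjusted p = 0.440). Their 95% intervals were -0.11 to 1.21, -1.26 to 0.06 and -0.11 to 1.22. Without cow D, whose membrane array read highest of its group before LH (11.24), the effect in membrane granulosa was called (0.82, adjusted p = 0.0351, range 0.0351 to 0.501). The LH effect in antral minus that in membrane granulosa was -1.15 ± 0.31, -1.34 ± 0.27 and -0.59 ± 0.20 by the 3 probe sets (unadjusted p = 0.00305, 0.000266 and 0.0127). None was called (adjusted p = 0.387, 0.267 and 0.459), nor was any of the 24016 probe sets in this comparison with limma, although 2236 had an unadjusted p under 0.05.

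**Figure D4:**
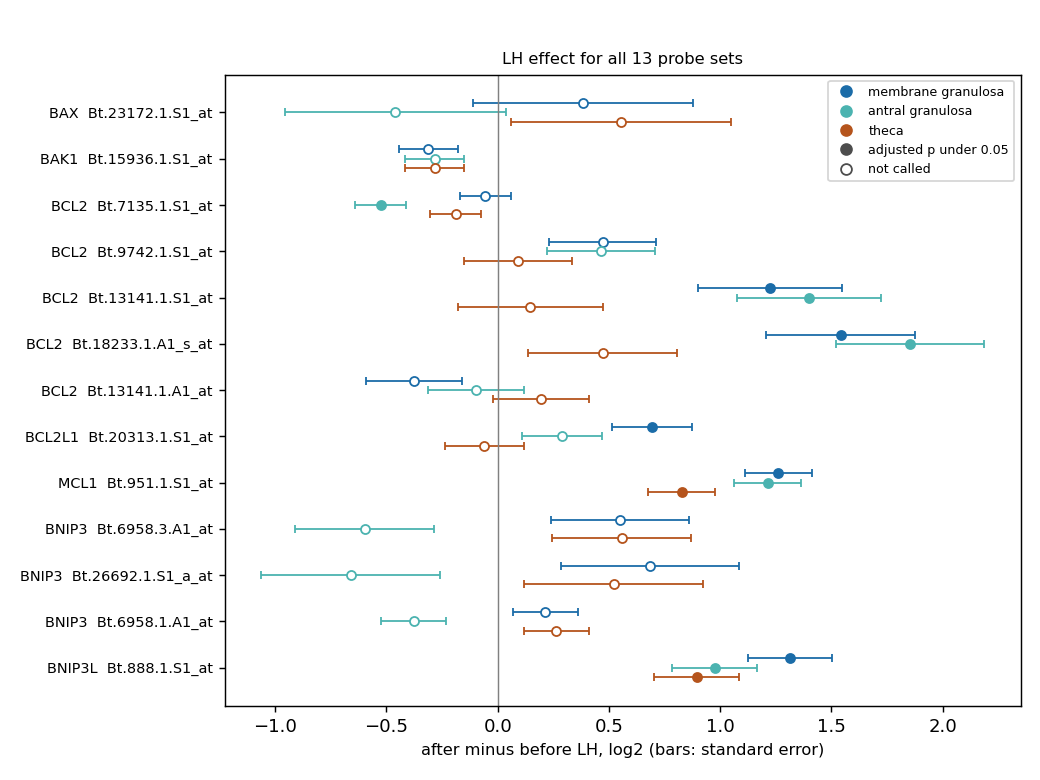
LH effect, the mean after LH minus the mean before it (x axis, log2, bars of 1 standard error, 3 cows against 3), for each of the 13 probe sets (y axis) in the 3 populations; filled points had an adjusted p under 0.05. MCL1 and BNIP3L are filled in all 3 populations, BCL2L1 in membrane granulosa, and the BCL2 probe sets point to both sides.

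Between theca and membrane granulosa, 4 of the 7 genes were called before LH, 2 higher in theca (MCL1, BCL2L1) and 2 lower (BNIP3, BNIP3L), where 34.3% of all probe sets were called (15.4% higher, 18.9% lower). Over all genes the shares were 21.1% higher and 19.3% lower. The groups did not overlap for 4 genes before LH (41.6% of all probe sets) and 3 after it (32.4%). After LH 2 were called, BNIP3 and BNIP3L, both lower in theca, where 25.8% were called (14.4% lower). Over all genes 15.7% were called lower then. On theca arrays before LH the granulosa marker list had a mean level of 8.46 to 9.57, with FOXL2 below the limit on all of them. Whether these arrays held granulosa cells, and their part in these differences, was not tested. The fit without the cow as a block called 2 genes before LH, MCL1 and BNIP3 (adjusted p = 0.0790 for BCL2L1 and 0.0747 for BNIP3L).

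Across the LH effects the members moved beside large shifts in marker lists. Of 9 granulosa markers, 7 fell in membrane granulosa, 6 in antral granulosa and 3 in theca, and none rose. Of 7 fibroblast markers 1, 4 and 1 rose and none fell, and their mean level went from 8.19 to 9.63 before LH to 9.63 to 11.04 after it in membrane granulosa. In antral granulosa the fibroblast mean went from 5.77 to 6.19 to 7.07 to 8.81, with COL3A1 below the limit on all arrays there before LH. Leukocyte markers (7 of 9 measured) had means of 5.04 to 6.04 on granulosa arrays and 5.84 to 6.53 on theca arrays, with ITGAM below the limit on all arrays. Endothelial markers (8 genes) had means of 4.42 to 5.26 on granulosa and 6.61 to 7.21 on theca arrays, with KDR below the limit on all 18. Smooth muscle markers (5 genes) had means of 5.16 to 7.75 on granulosa and 9.26 to 10.63 on theca arrays. Of these 5, 2 rose in antral granulosa and 1 fell in theca. Among leukocyte markers 1 rose in membrane granulosa and 1 in theca, and among endothelial markers 1 rose in theca. For red cell markers 1 was called lower in membrane granulosa. Of 5 theca markers 2, 1 and 2 fell. The part of these cell types in the LH effects of the members was not tested.

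Other members of the BCL2 family were measured for 7 of 15 listed genes. BOK, a pore-forming relative of BAX, rose in membrane granulosa (1.19 ± 0.22, adjusted p = 0.00109) and antral granulosa (1.17 ± 0.22, adjusted p = 0.00113). Its dim second probe set read -0.11 (adjusted p = 0.704) and -0.50 (adjusted p = 0.0343). BCL2L2, the survival protein BCL-W, fell in membrane (-1.20 ± 0.21, adjusted p = 0.000612) and antral granulosa (-0.98 ± 0.21, adjusted p = 0.00284). BCL2A1, a survival gene of the NF-kB response, fell in theca (-1.97 ± 0.26, adjusted p = 0.000381), where the means before and after LH were 7.60 and 5.62. BCL2L12 rose in antral granulosa (0.97 ± 0.24, adjusted p = 0.00741; 0.0564 without cow F). The list thus had 1 higher and 1 lower in membrane granulosa (2 each without cow C), 2 and 1 in antral granulosa (1 higher without cow F) and 0 and 1 in theca. Over all genes 13.1% were called higher and 12.9% lower in membrane granulosa, 12.6% and 16.1% in antral granulosa, and 2.34% and 2.85% in theca.

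Among the other mitophagy and autophagy genes, 21 of 26 were measured. OPTN, the adaptor optineurin that links ubiquitin-tagged mitochondria to LC3, fell in membrane (-3.32 ± 0.27, adjusted p = 4.47e-07) and antral granulosa (-3.34 ± 0.27, adjusted p = 2.81e-07). Its other 2 probe sets read between -3.68 and -3.14 in these populations, with adjusted p of at most 4.92e-05. In theca OPTN fell by 1.08 ± 0.27 (adjusted p = 0.0348), a call lost without cow A (0.144), B (0.0936), D (0.193) or F (0.122). Its other 2 probe sets were not called in theca (-0.96, adjusted p = 0.217, and -0.90, adjusted p = 0.312). FUNDC1, a receptor of hypoxia-induced mitophagy in the outer membrane, fell in membrane (-1.27 ± 0.15, adjusted p = 1.97e-05) and antral granulosa (-1.50 ± 0.15, adjusted p = 2.66e-06), by both of its probe sets. BNIP3L thus rose on the same granulosa arrays on which OPTN and FUNDC1 fell.

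ULK1, the kinase that starts autophagy, rose by 1.23 ± 0.23 (adjusted p = 0.00103) in membrane and by 1.88 ± 0.23 (adjusted p = 1.72e-05) in antral granulosa; its dim second probe set read 0.48 (adjusted p = 0.0382) and 0.24 (adjusted p = 0.318). MAP1LC3A, an LC3 protein of the autophagosome membrane, rose by 1.07 ± 0.22 (adjusted p = 0.00249) and 1.54 ± 0.22 (adjusted p = 9.67e-05). In theca the rises were those of MAP1LC3C (3.59 ± 0.59, adjusted p = 0.00224), with 2 of 3 arrays before LH below the limit, and WIPI1 (1.04 ± 0.18, adjusted p = 0.00367; 0.0513 without cow A). The counts were 5 higher and 2 lower in membrane granulosa, 4 and 2 in antral granulosa and 2 and 1 in theca. Those higher in membrane granulosa numbered 2 without cow A, D or G and 3 without cow B. In theca 1 was higher without cow A, and none was lower without cow A, B, D or F. The median of the list was 0.20, 0.15 and 0.10, beside -0.03, -0.03 and -0.01 over all genes. Shares called over all genes were 13.1% higher and 12.9% lower in membrane granulosa, 12.6% and 16.1% in antral granulosa, and 2.34% and 2.85% in theca.

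Of 19 listed caspase, apoptosome and IAP genes 12 were measured, and no rise was called in any population. Over all genes 13.1%, 12.6% and 2.34% were called higher in membrane granulosa, antral granulosa and theca, and 12.9%, 16.1% and 2.85% lower. ENDOG, a mitochondrial nuclease released in apoptosis, fell in membrane (-1.32 ± 0.23, adjusted p = 0.000511) and antral granulosa (-1.78 ± 0.23, adjusted p = 2.81e-05). BIRC3, an inhibitor of apoptosis of the NF-kB response, fell likewise (-0.97 ± 0.19, adjusted p = 0.00149, and -0.83 ± 0.19, adjusted p = 0.00423), by both of its probe sets. These 2 were the genes called in granulosa; in theca none was called with limma, and 1 was lower without cow B or C. The medians were 0.06, 0.15 and -0.03, beside -0.03, -0.03 and -0.01 over all genes.

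The genes with patterns most like each member over the 18 arrays were taken by Pearson correlation among 7524 genes above the limit. For BNIP3 they were SLC16A3 (r = 0.94), a lactate transporter, and LDHA (r = 0.94), lactate dehydrogenase A. After group means were removed the values were 0.80 and 0.78. LDHA was read by its brightest probe set, with an LH effect of 1.10 in theca, where its other 2 probe sets read -0.00 and -0.24. For BNIP3L they were RBM15B (0.97, and 0.82 without group means) and the malic enzyme ME2 (0.96 and 0.56). For MCL1 they were LOC512805 (0.96 and 0.54) and the ceramidase ASAH1 (0.96 and 0.53). BAX was most like the deacetylase HDAC8 (0.92 and 0.93) and PARP1 (0.86 and 0.86), a sensor of DNA breaks. BCL2L1 was most like TTLL1 (0.90 and 0.87) and CCNI (0.90 and 0.85), BCL2 by its brightest probe set like MED29 (0.91 and 0.82) and CCDC167 (0.90 and 0.69), and BAK1 like GFUS (0.87 and 0.76) and MPV17 (0.85 and 0.62). The arrays share groups and cows, so these values describe likeness only. Groups accounted for 94.4% of the variance of MCL1 and 92.2% of that of BNIP3L, the highest shares of the 13 probe sets.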

How the data were processed

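RNA of 18 samples was measured on single-sample Affymetrix arrays, with biotin-labelled cRNA made by a 3' IVT kit, per the labels' protocols. Per the submitters' processing notes, the authors made the deposited log2 values with RMA in Partek 6.5; the settings are not given in the sources used here. Quantile steps of RMA make array distributions alike, so a shift of most genes in one direction would be hidden. Array medians lay between 5.74 and 5.86, and no pair of arrays was identical.

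From these values, 24016 probe sets, all but 112 controls, entered linear models in limma 3.58.1 (R 4.3.3) with eBayes moderation and Benjamini-Hochberg adjustment. LH effects compare different cows and were fitted on 6 group means without a block. The spread of these fits takes arrays of 1 cow as independent. Comparisons between populations, and differences in LH effect, had the cow as a fixed block. Once group means were taken out, pairs of arrays from 1 cow had correlations of -0.02 to 0.69, with 17 of 18 pairs over 0.1. A replicate number shared across times stands for 2 different cows (-0.17 to 0.23). Gene names are from the platform annotation; all 7 member symbols match RefSeq by gene ID. All members were named; of the lists, up to 4 genes per LH effect with the smallest adjusted p among those called. The members and lists were chosen with earlier results of these data known. Alternatives were quantile normalization, median centring, no dim probe sets, the second probe set, 1 probe set per gene, trend and robust eBayes, a minimum difference of 1 (for counts of called members), fits on the compared arrays alone, other block terms and leaving out each cow. Figures used matplotlib 3.10.9 in Python 3.11.15.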

Additional observations from a re-analysis of the deposited data

Results flagged for a closer look

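The LH effect differed between theca and membrane granulosa, by the test of the difference itself with the cow as a block, for 2 member probe sets. For BCL2L1 the effect in theca minus that in membrane granulosa was -0.75 (adjusted p = 0.0199), and for BCL2 by Bt.13141.1.S1_at it was -1.08 (adjusted p = 0.0389), both with limma. Groups of 3 arrays were not searched for single outlying arrays.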

How the results depend on the processing

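Among the alternatives' values for the 7 genes, 814 stayed on the same side of the threshold, 35 lost the call and 8 gained it. In 1 the direction reversed where a call was involved. The 814 include values that changed direction without a call in either fit. An example is the LH effect on BAX in membrane granulosa, 0.38 in the main fit and -0.21 at its lowest. BCL2 after LH in antral granulosa read 0.46 by its second probe set, against -0.53. With a minimum difference of 1, called members numbered 1 for LH in antral granulosa, 0 in theca, 1 for theca against membrane granulosa before LH and 1 after it, and 0 for the difference in LH effect between them. With only the arrays compared, they numbered 1 for LH in theca, 0 for antral against membrane granulosa before LH and 1 after it. Antral against membrane granulosa before LH gave 2 after quantile normalization or with 1 probe set per gene. Without each cow in turn, counts ran from 1 to 2 for LH in theca, 2 to 4 and 0 to 3 for theca against membrane granulosa before and after LH, 0 to 1 for antral against membrane granulosa before LH, and likewise 0 to 1 where theca and membrane granulosa were compared for their LH effects. Without the cow as a block, paired comparisons had 2 called members (theca against membrane granulosa before LH), 0 (antral against membrane before LH) and 0 (difference in LH effect). With the replicate number as a block, which pairs different cows, or the cow as a random block, no member's LH call changed. The causes were not tested.

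Calls over all probe sets moved as well. For LH in theca the 941 calls became 465, 571 and 439 without cow D, G or A, and 514 with only the arrays compared. For antral against membrane granulosa before LH the 426 became 83, 279, 187, 161 and 168 without cow D, F, G, A or B, 134 without the cow as a block and 103 with only the arrays compared. After LH the 721 became 472, 5, 0 and 280 without cow D, A, B or C, 297 without the block and 1226 with only the arrays compared. Theca against membrane granulosa after LH went from 6187 to 2617 and 2467 without cow A or B. The difference in LH effect between them went from 2192 to 1301, 1074 and 1190 without cow G, A or B and to 1016 without the block. The difference between both granulosa populations in LH effect, 0 with limma as reported, gave 6 and 20 without cow F or G and 1 to 3 under 5 other settings. With 1 probe set per gene, fewer features were tested. Counts were then 2497 (from 5041) and 2742 (from 5391) for LH in membrane and antral granulosa, 524 in theca, 3823 (from 8234) and 3053 for theca against membrane granulosa before and after LH, 339 for antral against membrane granulosa after LH and 1184 for the difference in LH effect between theca and membrane granulosa.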

Other observations

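Hypoxia-inducible genes, to which BNIP3 belongs as a known target, were measured for 15 of 18 listed genes. NDRG1, a stress-responsive gene, rose by 4.94 ± 0.35 in membrane granulosa (adjusted p = 1.45e-07) and by 5.99 ± 0.35 in antral granulosa (adjusted p = 1.39e-08), with 1 of 3 antral arrays before LH below the limit. ADM, the vasodilator adrenomedullin, rose by 2.83 ± 0.44 (adjusted p = 0.000216) and 3.15 ± 0.44 (adjusted p = 6.74e-05). In theca ADM rose by 2.03 ± 0.44 (adjusted p = 0.0150), a call lost without cow A (0.113), B (0.0811), D (0.0842) or G (0.0715). DDIT4, an inhibitor of mTOR signalling, fell in antral granulosa (-1.96 ± 0.24, adjusted p = 1.68e-05) and rose in theca (0.93 ± 0.24, adjusted p = 0.0402; lost without cow A, C, D, F or G, range 0.0193 to 0.210). P4HA2, a collagen prolyl hydroxylase, fell in antral granulosa (-0.78 ± 0.17, adjusted p = 0.00299) and in membrane granulosa (-0.54 ± 0.17, adjusted p = 0.0336; lost without cow A, B, D or G, range 0.0175 to 0.152). KDM3A, a histone demethylase, rose in membrane granulosa by 0.85 ± 0.22 (adjusted p = 0.00952; lost without cow A, B or F, range 0.00509 to 0.0737). LDHA rose in theca by 1.10 ± 0.27 (adjusted p = 0.0342; lost without cow B, C, D, F or G, range 0.0233 to 0.165) by its brightest probe set and by neither of its other 2 (adjusted p = 0.997 and 0.644). The list had 4 higher and 1 lower in membrane granulosa, 3 and 4 in antral granulosa and 3 and 0 in theca. Beside these, the shares over all genes were 13.1% and 12.9%, 12.6% and 16.1%, and 2.34% and 2.85% in the same order. Without 1 cow the higher counts ran from 2 to 4, 2 to 4 and 0 to 1, and the lower counts from 0 to 3, 2 to 5 and 0 to 0. In membrane granulosa the higher count was 2 without cow A or F, and the lower count 0 without cow A, B, D or G and 3 without cow C. In antral granulosa the lower count was 2 without cow B, D or F. In theca the higher count was 0 without cow D or G and 1 without any other cow. Between theca and membrane granulosa before LH, 10 of the 15 were called lower in theca and 2 higher. Over all genes these shares were 19.3% and 21.1%. After LH 8 were called lower in theca and 1 higher, beside 15.7% and 15.7% over all genes. The relation of these genes to the BNIP3 difference between populations was not tested.

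Of 12 listed p53 pathway genes 8 were measured. TP53INP1, which links p53 to autophagy, rose by 1.70 ± 0.27 in membrane granulosa (adjusted p = 0.000237) and 2.10 ± 0.27 in antral granulosa (adjusted p = 2.60e-05); its dim second probe set read 0.56 (adjusted p = 0.0224) and 0.44 (adjusted p = 0.0638). CDKN1A, the cell cycle inhibitor p21, rose in membrane granulosa by 2.21 ± 0.57 (adjusted p = 0.0110; 0.0665 without cow G, range 0.000112 to 0.0665) and in antral granulosa by 1.66 ± 0.57 (adjusted p = 0.0493; lost without cow A, D, F or G, range 0.00249 to 0.185). GADD45A, a stress gene of the DNA damage response, was called higher in membrane granulosa (adjusted p = 0.00591), where it was below the limit on all 3 arrays before LH and on 1 after it. In theca GADD45A rose by 1.23 ± 0.31 (adjusted p = 0.0353; lost without cow A, B, D, F or G, range 0.0120 to 0.187) and TP53INP1 by 1.05 ± 0.27 (adjusted p = 0.0394; lost without cow A, B, F or G, range 0.00808 to 0.207), while the second probe set of TP53INP1 read 0.32 (adjusted p = 0.377). CCNG1, cyclin G1, fell in antral granulosa (-0.61 ± 0.16, adjusted p = 0.0112; 0.0607 without cow F, range 0.00141 to 0.0607). SESN2, a sestrin, fell there too (-0.49 ± 0.16, adjusted p = 0.0417; lost without any 1 of the 6 cows, range 0.0317 to 0.176), and its other 2 probe sets read -0.11 and -0.01, not called. The counts were 3 higher and 0 lower, 2 and 2, and 2 and 0 in membrane granulosa, antral granulosa and theca. In antral granulosa 1 was higher without cow A, D, F or G, and the lower count was 0 without cow F and 1 without any other cow. In theca the higher count was 1 without cow D and 0 without cow A, B, F or G. Shares called over all genes were 13.1% higher and 12.9% lower in membrane granulosa, 12.6% and 16.1% in antral granulosa, and 2.34% and 2.85% in theca.

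Genes of the mitochondrial outer membrane and of mitochondrial dynamics were measured for 12 of 15. The import receptor TOMM22 fell in antral granulosa (-0.91 ± 0.14, adjusted p = 0.000129), and the fission factor MFF rose there by 0.86 ± 0.20 (adjusted p = 0.00462); its dim second probe set read 0.12 (adjusted p = 0.782). In membrane granulosa MFF rose by 0.64 ± 0.20 (adjusted p = 0.0319; lost without cow B, D, F or G, range 0.0152 to 0.171), and its second probe set read 0.24 (adjusted p = 0.536). The channel VDAC1 fell in membrane (-0.96 ± 0.24, adjusted p = 0.00830; lost without cow A or F, range 5.63e-05 to 0.0793) and antral granulosa (-0.94 ± 0.24, adjusted p = 0.00925; lost without cow B or G, range 0.000167 to 0.0684); its second probe set read -0.82 and -0.81 and was not called (adjusted p = 0.155 and 0.156). The fission protein FIS1 rose in membrane granulosa by 1.16 ± 0.34 (adjusted p = 0.0211; lost without cow B, D or G, range 0.0139 to 0.148). VDAC2, a channel known to bind BAK1, rose there by 0.65 ± 0.22 (adjusted p = 0.0460; lost without any 1 of the 6 cows, range 0.0325 to 0.237). The counts were 3 higher and 1 lower in membrane granulosa, 1 and 2 in antral granulosa and 0 and 0 in theca by limma. In membrane granulosa the higher count was 0 without cow B, D or G and 1 without cow F, and the lower count 0 without cow A or F and 2 without cow C. In antral granulosa the lower count was 1 without cow B or G. Shares called over all genes were 13.1% higher and 12.9% lower in membrane granulosa, 12.6% and 16.1% in antral granulosa, and 2.34% and 2.85% in theca.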
